A study of Mus musculus with 4 samples.

Results

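Death receptors, their adaptors and the initiator caspases were followed in the testes of Rfx2 mutant and control mice as 8 genes chosen by symbol: the receptors Tnfrsf21, Tnfrsf1a, Tnfrsf10b and Fas, the adaptors Fadd and Ripk1, and the caspases Casp8 and Casp9. All 8 were found, as single entries, among the 22311 gene symbols of the deposited tables, and 7 of them passed the filter on low expression described below. RNA came from whole testes at postnatal day 24 (P24), from 2 mutant and 2 control samples. The mutants carry Rfx2 -/-, a germline allele in every cell in which exons 6 and 7 are replaced by a neomycin-resistance cassette, and it derives from 1 targeted embryonic stem cell clone of strain 129/S6. The controls are wild type in the sample labels and heterozygous in the study's methods, and the strain is given as DBA in the labels and as a mix of 129/S6 and C57BL/6 in the methods, for both genotypes. The methods call the 2 samples of a genotype biological replicates, and the labels do not say whether a sample is 1 mouse or a pool. The p-values rest on the spread between these samples, with 2 residual degrees of freedom per gene in the main fit. The test used, limma, draws the variance of each gene toward a trend over all genes tested.

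Death receptors are members of the tumour necrosis factor (TNF) receptor superfamily that carry a cytoplasmic death domain. A bound receptor such as FAS or a TRAIL receptor recruits the adaptor FADD, which brings in and activates caspase-8, and caspase-8 then cleaves the executioner caspases. Caspase-9 belongs to the other route, in which cytochrome c from mitochondria assembles the apoptosome with APAF1. In the testis, FAS and its ligand are known for their part in the removal of germ cells, and RNA levels do not report the cleavage by which caspases are activated.

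Tnfrsf21, which encodes death receptor 6, was the member that the results turned on. In NCBIM37 (mm9) the gene spans chr17:43153504-43226137 on the plus strand, with 1 annotated transcript of 6 exons. Real-time PCR in the study used a primer pair for this gene, shown here because it marks the transcribed stretch that was amplified. The forward primer matched chr17:43174611-43174630 on the plus strand and the reverse primer chr17:43174691-43174710 on the minus strand, each at 1 place in the gene. Both matches lie in coding sequence of exon 2, within 100 bases, so the amplicon does not span an intron. In the stretch between them, read from NCBIM37, capitals mark the primer matches.
Forward primer: gccatgttgaccgtaccact
Reverse primer: cagactcgcaggctcatgtt
Amplified stretch: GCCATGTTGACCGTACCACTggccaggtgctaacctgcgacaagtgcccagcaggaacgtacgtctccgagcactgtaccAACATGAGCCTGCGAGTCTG

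The files hold fragments per kilobase of transcript, scaled to the number of mapped fragments (FPKM), estimated by Cufflinks for each sample with the bounds of a confidence interval. Values were put on the log2(FPKM + 1) scale, and limma tested the difference between genotypes in the 12985 genes that reached an FPKM of 1 in 2 or more of the 4 samples. Adjusted p-values are those of Benjamini and Hochberg over all of these genes, with a threshold of 0.05. The FPKM of Rfx2, the targeted gene, was 36.7 and 39.8 in mutants 1 and 2 versus 123 and 89.4 in controls 1 and 2, over the gene as a whole (log2 fold change -1.43, adjusted p = 0.00617 from limma). That call was lost with median-ratio scaling, where the adjusted p was 0.0730, without the filter (0.0607) and without control 1 (0.0628). The width of the intervals corresponds to between 17100000 and 20300000 fragments per sample. Mutant 1 stood apart in markers of spermatids. The summed FPKM of 10 elongating spermatid markers was 1523 in mutant 1, 7081 in mutant 2, 8321 in control 1 and 5688 in control 2. That of 8 round spermatid markers was also lowest in mutant 1, at 567 against 862 to 1061 in the other samples. The study reports that mutant round spermatids did not become elongating ones. At P24 it describes abundant round spermatids in both genotypes, and abundant elongating spermatids in wild type at P28. The sums of elongating spermatid markers were therefore not read as counts of elongating cells in either genotype. In bulk tissue, fewer cells of a type and less RNA per cell cannot be told apart.

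Tnfrsf21 rose in mutant testes. Mutants 1 and 2 had 10.9 and 17.9 FPKM, whereas controls 1 and 2 had 1.19 and 1.40 FPKM. Both mutant samples were far above both control samples. The lower mutant value was 7.77 times the higher control value, and the ratio of the group means was 11.1. On the log2(FPKM + 1) scale the fold change was 2.71 (standard error 0.27, 95% interval 2.08 to 3.34, adjusted p = 0.00131 from limma), which understates the ratio because of the pseudocount of 1. The study picked this gene from these samples for real-time PCR, so its rise here is not independent evidence. By that PCR the study reported Tnfrsf21 as up-regulated in the mutants. Of all genes tested, 0.308% were called higher in the mutants and 2.83% were called in either direction, and Tnfrsf21 was the 1 of 7 tested members that was called. These counts of all genes depended on single samples: 40 genes were called higher and 327 lower with all samples, and without 1 sample the counts were 162 and 433 (mutant 1), 102 and 948 (mutant 2), 17 and 167 (control 1) and 13 and 213 (control 2). Tnfrsf21 was called each time. Among all genes tested its log2 fold change ranked 2, and among the 40 genes called higher its p ranked 3.

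The confidence interval of Tnfrsf21 ran from 10.2 to 11.5 FPKM in mutant 1 and from 17.01 to 18.8 FPKM in mutant 2. In control 1 it ran from 0.967 to 1.41 FPKM and in control 2 from 1.17 to 1.63 FPKM. Those widths correspond to about 1119 and 1577 fragments in the mutants and 117 and 146 fragments in the controls. The intervals of the mutants did not overlap each other, and the samples differed 1.65-fold, while the control intervals overlapped. These intervals describe each sample on its own and do not hold the spread between samples.

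**Figure D1:**
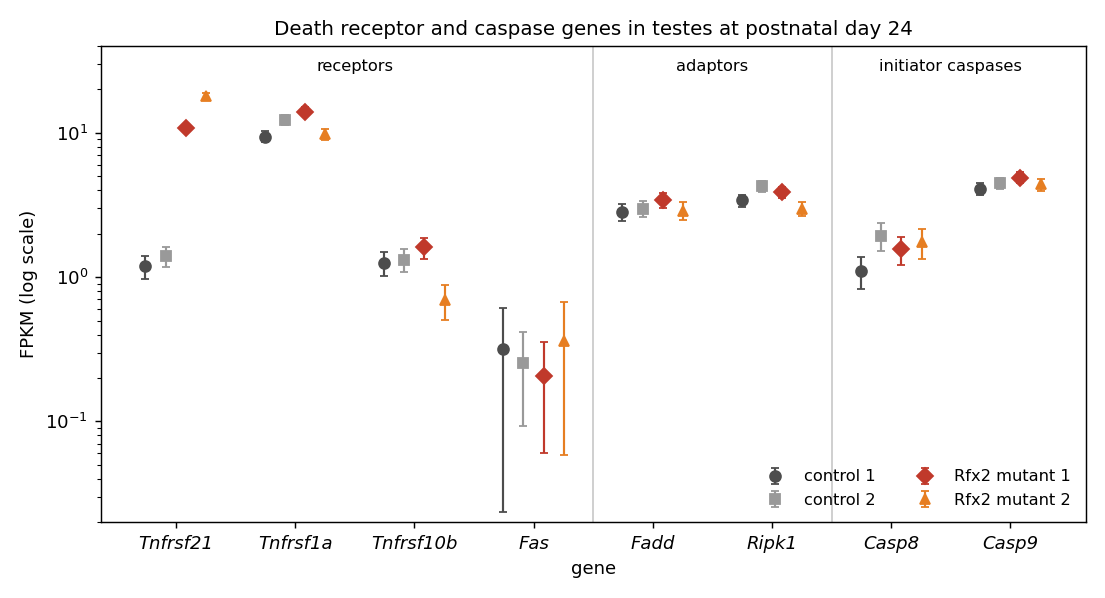
FPKM (log axis) of the 8 genes in the 4 samples; points are the deposited values and bars the Cufflinks confidence bounds, in order of receptors, adaptors and initiator caspases. For Tnfrsf21 both mutant samples (10.9 and 17.9 FPKM) lie above both control samples (1.19 and 1.40 FPKM), and for the other genes the genotypes overlap.

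The genotypes overlapped in each of the other 7 members. Over all genes tested, the genotypes did not overlap for 31.5%, with the mutants above the controls for 16.3% and below them for 15.2%. Of the 7 members, 6 were tested, and none of the 6 was called lower, a call made for 2.52% of all genes tested. These 6 are too few to compare with that share. Each had an adjusted p of 0.9999 from limma. The log2 fold changes of these 6 lay between -0.12 for Tnfrsf10b and Ripk1 and 0.12 for Tnfrsf1a. The median over the 7 members tested, Tnfrsf21 included, was 0.091, beside a median of 0.032 over all genes tested. With 2 samples per genotype these tests do not show that the genes were unchanged, and an exact permutation test on a single gene cannot give a two-sided p below 0.333.

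Among the receptors, Tnfrsf1a, which encodes TNF receptor 1, was the most abundant in the controls. It was at 14.0 and 9.81 FPKM in mutants 1 and 2 versus 9.43 and 12.3 FPKM in controls 1 and 2. The genotypes were interleaved, and the 95% interval of the log2 fold change ran from -0.43 to 0.66, which spans 0.741-fold to 1.58-fold. Tnfrsf10b, which encodes a TRAIL receptor, was at 1.61 and 0.692 FPKM in mutants 1 and 2 versus 1.26 and 1.32 FPKM in controls 1 and 2. Mutant 2 was low for this gene: its confidence interval, 0.502 to 0.883 FPKM, lay below those of the other three samples, the lowest of which began at 1.02 FPKM in control 1. The mutant samples differed 2.32-fold from each other, against 1.05-fold between the controls, and the 95% interval of the log2 fold change was -0.69 to 0.44. Fas was the least abundant member in every sample, at 0.207 and 0.363 FPKM in mutants 1 and 2 versus 0.315 and 0.256 FPKM in controls 1 and 2. It did not pass the filter, its intervals rested on about 4.67 to 9.79 fragments, and the intervals of all 4 samples overlapped, so that no difference was detectable at this depth.

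The receptor transcripts differed in make-up between genotypes, through Tnfrsf21. The summed FPKM of the 4 receptors was 26.7 and 28.8 for the mutants and 12.2 and 15.3 for the controls. Without Tnfrsf21 the sums lay between 10.9 and 15.8 over the 4 samples, with the lowest and the highest both in mutants, so that the genotypes overlapped. Tnfrsf21 made up 40.6% and 62.2% of the sum in the mutants, against 9.74% and 9.15% in the controls. Tnfrsf1a made up 52.6% and 34.1% in the mutants and 77.3% and 80.5% in the controls. In order of FPKM among the 8 genes, Tnfrsf21 ranked 6 in each control, 2 in mutant 1 and 1 in mutant 2.

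**Figure D2:**
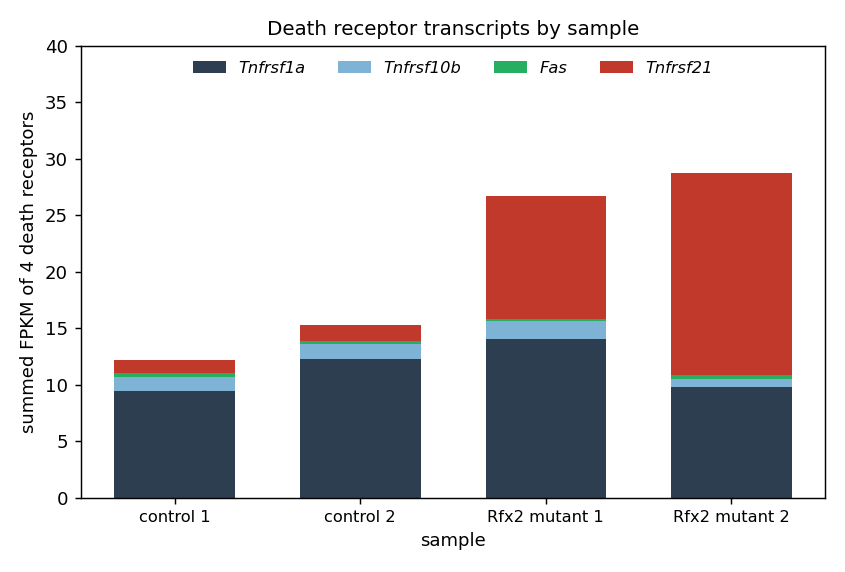
Summed FPKM of Tnfrsf1a, Tnfrsf10b, Fas and Tnfrsf21 in each sample, as stacked bars from 0. The red Tnfrsf21 segment is 9.74% and 9.15% of the bar in control 1 and control 2 and 40.6% and 62.2% in mutant 1 and mutant 2, while the remainder overlaps between genotypes.

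The genotypes also overlapped in both adaptors. Fadd, whose product links receptors to caspase-8, was at 3.43 and 2.88 FPKM in mutants 1 and 2 versus 2.84 and 2.98 FPKM in controls 1 and 2. Its log2 fold change was 0.086 (95% interval -0.40 to 0.58). Ripk1 encodes a kinase of the TNF receptor complex that takes part in survival signalling as well as in death. It was at 3.88 and 2.98 FPKM in mutants 1 and 2 versus 3.40 and 4.26 FPKM in controls 1 and 2, with a log2 fold change of -0.12 (95% interval -0.66 to 0.41). For both genes the values of the genotypes were interleaved.

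The genotypes overlapped in both initiator caspases. Casp8 was at 1.56 and 1.74 FPKM in mutants 1 and 2 versus 1.10 and 1.94 FPKM in controls 1 and 2, so that the controls were both the lowest and the highest. The log2 fold change of Casp8 was 0.093 (95% interval -0.44 to 0.63). Casp9 was at 4.90 and 4.39 FPKM in mutants 1 and 2 versus 4.10 and 4.496 FPKM in controls 1 and 2, with a log2 fold change of 0.091 (95% interval -0.40 to 0.58). Casp9 was above Casp8 in every sample on this scale. In both controls the order of FPKM began with Tnfrsf1a, Casp9, Ripk1 and Fadd and ended with Fas. Between them, the order was Tnfrsf10b, Tnfrsf21 and Casp8 in control 1 and the reverse in control 2. In each control the confidence intervals of these neighbouring genes overlapped, as did those of Casp9 and Ripk1, while Fadd and Ripk1 overlapped in control 1 only.

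Some members shared an order of samples that crossed the genotypes. For 5 of the 7 members other than Tnfrsf21, the highest values were those of mutant 1 and control 2. Among all genes tested, 37.6% had these samples highest. The same samples were highest for 10 of 10 Sertoli cell markers tested and 6 of 8 spermatogonial markers tested. The summed FPKM of these Sertoli cell markers was 920 and 798 in mutants 1 and 2 versus 631 and 851 in controls 1 and 2. Tnfrsf21 did not follow this order, since mutant 2 was its highest sample. This order was noticed after the values were seen, and its part in the levels of the members was not tested.

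Tnfrsf21 was also set beside the marker lists of the cells that a testis holds. No gene of the lists for spermatogonia, spermatocytes, Sertoli cells, Leydig cells, peritubular myoid cells or macrophages had an adjusted p under 0.05, and at an unadjusted p under 0.05 there was none either. Of the 8 round spermatid markers, Spaca7 (log2 fold change -0.85), named after its value was seen, was lower at an unadjusted p under 0.05 (adjusted p = 0.121 from limma), and of the 10 elongating spermatid markers none was at either. The median log2 fold change was 0.11 for the 10 Sertoli cell markers tested, 0.29 for the 6 Leydig cell markers tested, -0.26 for the 8 round spermatid markers and -0.54 for the 10 elongating spermatid markers. The summed FPKM of 7 Leydig cell markers was 454 and 242 in mutants 1 and 2 versus 390 and 139 in controls 1 and 2, and that of 8 round spermatid markers was 567 and 1006 in mutants 1 and 2 versus 1061 and 862 in controls 1 and 2. The summed FPKM of 7 macrophage markers was 28.7 and 20.6 in mutants 1 and 2 versus 23.4 and 37.6 in controls 1 and 2. Lymphocyte markers summed to between 0.974 and 1.68 FPKM in the 4 samples, near 0. Of 5 markers of erythroid cells, 2 (Hba-a2 and Hbb-b2, likewise named after their values were seen, and each with a near-identical copy that its reads could be split with) were lower at an unadjusted p under 0.05, none adjusted, and their summed FPKM was 49.5 and 128 for the mutants and 76.5 and 197 for the controls. The genotypes overlapped in each of these sums, and their part in the level of Tnfrsf21 was not tested. Without mutant 1, the sample with the lowest sums of round and elongating spermatid markers, the log2 fold change of Tnfrsf21 was 3.05.

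The other genes of the pathway were taken from 13 lists of receptors, ligands, adaptors, inhibitors, caspases, their targets and the responses they evoke. Without the members, these lists held 121 genes in the files, of which 74 were tested. None of the 74 was called by limma in either direction at an adjusted p under 0.05, beside 2.83% of all genes tested, and 1 of them had an unadjusted p under 0.05, beside 8.69% of all genes tested (2.01% higher and 6.68% lower). Their median log2 fold change was 0.055, and the genotypes did not overlap for 20 of them (27.03%), beside 31.5% of all genes tested. The gene with the unadjusted p under 0.05 was Relb, a subunit of the transcription factor NF-kappaB. It was at 4.37 and 4.07 FPKM in mutants 1 and 2 versus 2.31 and 2.54 FPKM in controls 1 and 2, so both mutants were higher, but with a log2 fold change of 0.61 (standard error 0.21) it did not pass (adjusted p = 0.327 from limma).

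Of the 3 further death receptors, 1 was tested. Ngfr, the p75 neurotrophin receptor, was at 3.65 and 1.93 FPKM in mutants 1 and 2 versus 6.48 and 3.66 FPKM in controls 1 and 2 (adjusted p = 0.679 from limma, log2 fold change -0.68). Tnfrsf25 was at or below 0.416 FPKM in every sample. Edar, the ectodysplasin receptor, was at 0.0955 and 0.0671 FPKM in mutants 1 and 2 versus 0.349 and 0.424 FPKM in controls 1 and 2, with no test at these levels. Among 21 other listed receptors of the superfamily, 2 were tested. These were Ltbr, the lymphotoxin beta receptor, at 10.6 and 7.94 FPKM in mutants 1 and 2 versus 7.44 and 6.66 FPKM in controls 1 and 2, and Tnfrsf12a, the TWEAK receptor, at 2.69 and 4.12 FPKM in mutants 1 and 2 versus 1.29 and 2.54 FPKM in controls 1 and 2. Both mutants were above both controls for each of these 2 genes, as for 16.3% of all genes tested, and their adjusted p were 0.995 for Ltbr and 0.666 for Tnfrsf12a from limma.

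Ligands of the death receptors other than App had low levels. Of 9 ligand genes, App was the one that passed the filter, at 45.1 and 35.0 FPKM in mutants 1 and 2 versus 33.7 and 46.3 FPKM in controls 1 and 2 (adjusted p = 0.9999 from limma, log2 fold change 0.0075). App encodes the amyloid precursor protein, which has been described as a ligand of death receptor 6. Fasl, the ligand of FAS, had the second highest mean of the list, at 0.402 and 0.516 FPKM in mutants 1 and 2 versus 0.381 and 0.272 FPKM in controls 1 and 2. Tnf was at most 0.0469 FPKM and Tnfsf10, which encodes TRAIL, at most 0.0805 FPKM in any sample.

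Downstream of the receptors, the adaptor list had 15 tested genes, Fadd and Ripk1 included, with log2 fold changes from -0.23 to 0.26. Its most abundant genes were Daxx, which encodes a protein that binds the FAS death domain, and Mapk9, which encodes a JNK kinase. Daxx was at 54.3 and 52.2 FPKM in mutants 1 and 2 versus 56.6 and 50.4 FPKM in controls 1 and 2. Mapk9 was at 21.0 and 17.2 FPKM in mutants 1 and 2 versus 15.2 and 20.2 FPKM in controls 1 and 2. Among 9 inhibitors tested, log2 fold changes ran from -0.19 to 0.24, with Birc2 (cIAP1) at 0.070 and Sharpin, a part of the linear ubiquitin chain complex, at 0.046.

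No other caspase was called. Casp2 was at 5.01 and 4.59 FPKM in mutants 1 and 2 versus 3.51 and 6.40 FPKM in controls 1 and 2. Casp6, an executioner caspase, had a log2 fold change of 0.044 and was at 6.93 and 4.90 FPKM in mutants 1 and 2 versus 4.94 and 6.42 FPKM in controls 1 and 2. No gene of the list of Casp1, Casp4, Casp12 and Casp14 was tested, and Casp1, the inflammasome caspase, was at 0.101 and 0.326 FPKM in mutants 1 and 2 versus 0.583 and 0.701 FPKM in controls 1 and 2. Of the apoptosome list, 9 genes were tested and their log2 fold changes ran from -0.032 to 0.13. Diablo, the antagonist of inhibitor of apoptosis proteins, was at 224 and 193 FPKM in mutants 1 and 2 versus 211 and 203 FPKM in controls 1 and 2. Cyct, the cytochrome c of germ cells, was at 135 and 122 FPKM in mutants 1 and 2 versus 118 and 129 FPKM in controls 1 and 2.

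Lists of genes that respond to the p53, stress and NF-kappaB pathways were given for comparison. For p53 targets, 14 genes were tested and the median log2 fold change was 0.13, with Mdm2, the ubiquitin ligase of p53, at -0.13 and Ei24 at 0.21. For the integrated stress response, 7 were tested with a median of 0.14, with Ddit3 (CHOP) at 0.10 and Asns, asparagine synthetase, at -0.36. Asns was at 23.0 and 36.3 FPKM in mutants 1 and 2 versus 36.4 and 38.6 FPKM in controls 1 and 2. For NF-kappaB targets, 11 were tested with a median of 0.059, with Sod2, the mitochondrial superoxide dismutase, at 0.072 and Tnfaip2 at -0.32. Of the list of caspase substrates and factors of DNA fragmentation, 5 were tested, among them Acin1 at 0.13 and Parp1, a caspase substrate in DNA repair, at 0.12. None of these genes was called by limma.

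**Figure D3:**
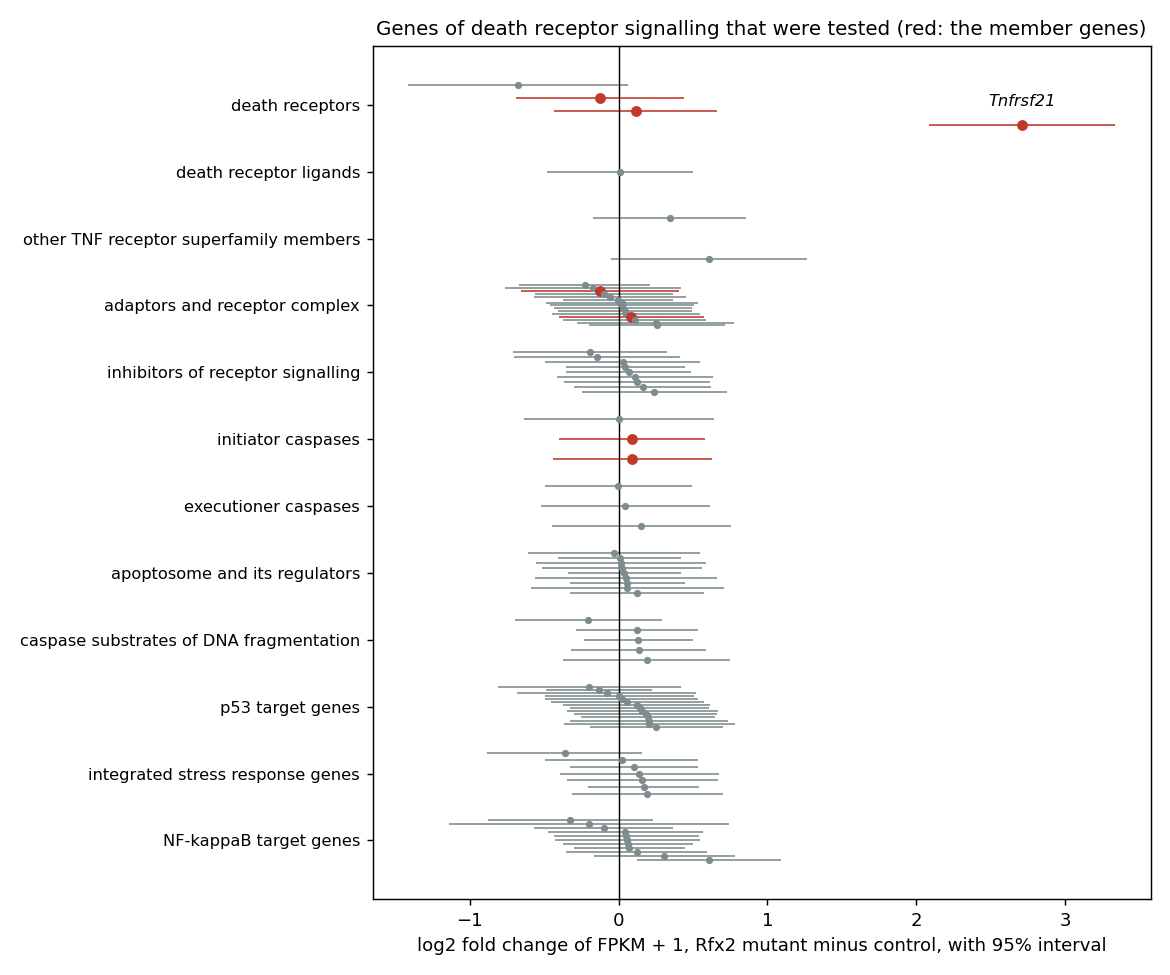
Log2 fold change of FPKM + 1 (mutant minus control) with its 95% interval from limma for each tested gene of the 12 lists with a tested gene, red for the 7 tested members and grey for the others. Tnfrsf21 stands at 2.71, and among the grey genes Relb at 0.61 is the one whose interval does not include 0.

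The genes whose pattern over the 4 samples was most like that of Tnfrsf21 were found by the Euclidean distance between values of log2(FPKM + 1), each centred on its mean over the samples. They were Ccl1 (distance 0.465), Npb (0.631), Pou2f3 (0.635), Dbn1 (0.806) and Gnaz (0.880), where the median distance of all genes tested was 2.75. Npb, which encodes neuropeptide B, was at 16.5 and 26.8 FPKM in mutants 1 and 2 versus 4.22 and 4.19 FPKM in controls 1 and 2. Like Tnfrsf21 it was highest in mutant 2 (log2 fold change 2.09, standard error 0.25, adjusted p = 0.00342 from limma), and its adjusted p was 0.0527 without the filter and 0.0513 without control 1. Ccl1, a chemokine, was at 7.82 and 10.3 FPKM in mutants 1 and 2 versus 0.920 and 0.437 FPKM in controls 1 and 2. All 5 were called higher in the mutants, a direction that the choice by likeness fixes. Ccl1, Npb, Pou2f3 and Dbn1 were highest in mutant 2, which that choice favours, and Gnaz was at 22.7 FPKM in both mutants. The annotation places none of the 5 on chromosome 17.

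Tnfrsf21 and Rfx2 share chromosome 17, and their start sites are 13.8 Mb apart in NCBIM37. The other members lie elsewhere, Tnfrsf1a on chromosome 6, Tnfrsf10b on 14, Fas on 19, Fadd on 7, Ripk1 on 13, Casp8 on 1 and Casp9 on 4. Of 188 tested genes within 20 Mb of Rfx2, Rfx2 itself left out, 2 were called higher, Tnfrsf21 being 1 of them, and 7 lower (4.79% in all). Of the 441 tested genes farther away on chromosome 17, 2 were called higher and 8 lower (2.27%), and 2.74% of 11990 genes on other chromosomes were called. The difference between these shares was not tested. The nearest tested genes on either side of Tnfrsf21, named by position among genes that passed the filter, were not called higher. Genes below the filter were left out. Cd2ap, with its start 0.140 Mb away, was at 5.05 and 3.77 FPKM in mutants 1 and 2 versus 3.79 and 6.35 FPKM in controls 1 and 2, and Pla2g7, 0.552 Mb away on the other side, was at 9.10 and 8.74 FPKM in mutants 1 and 2 versus 12.1 and 14.3 FPKM in controls 1 and 2. Neither was called in either direction (adjusted p = 0.9999 for Cd2ap and 0.418 for Pla2g7 from limma), nor was any of the 8 other genes tested within 2 Mb of Tnfrsf21, these 2 among them. At an unadjusted p under 0.05 from limma, Pla2g7 (log2 fold change -0.51) and Cyp39a1 (-0.49, named after its value was seen) were lower. Over all genes tested, 6.68% were lower at that level. By the strains of the methods, sequence of 129/S6 linked to the mutant allele goes with genotype, differing in dose if the controls are heterozygous. For Tnfrsf21, or any other gene that this sequence reaches, its part and that of genotype cannot be told apart. How far it reaches along the chromosome was not measured.

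**Figure D4:**
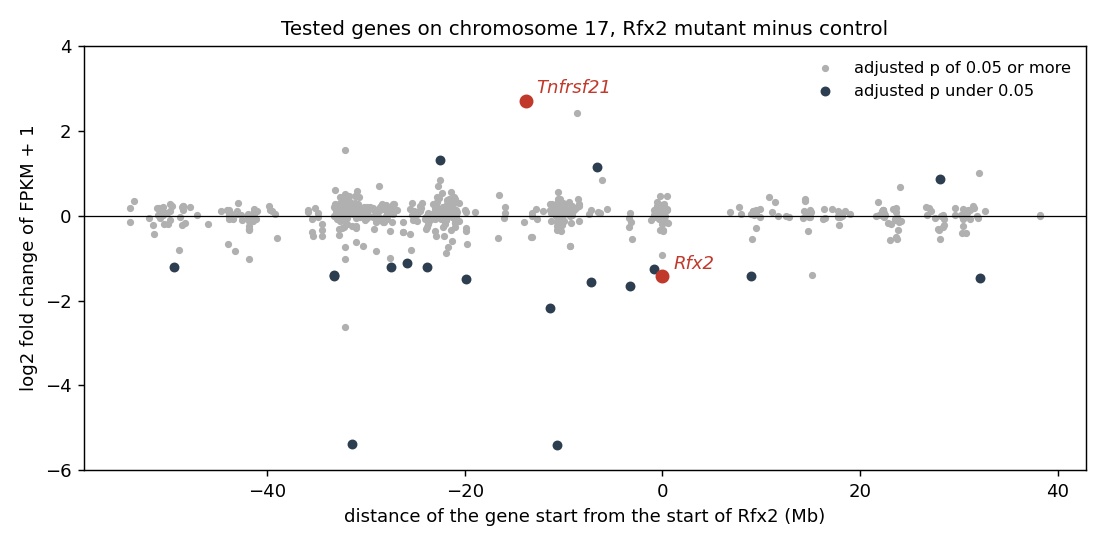
Log2 fold change of FPKM + 1 (mutant minus control) of the tested genes on chromosome 17 against the distance of their start from that of Rfx2 in Mb, dark for an adjusted p under 0.05. Tnfrsf21, 13.8 Mb from Rfx2, is the highest point at 2.71, and called genes are spread along the chromosome.

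RFX proteins bind the X-box, an imperfect inverted repeat, and the promoters of the members were searched for it. No X-box without mismatch lay within 1000 bases of the annotated start of any of the 8 genes in NCBIM37, on either strand, while 4.596% of the 12620 tested genes with an annotated start had one. In RefSeq promoters of GRCm38.p6, 7 of the 8 genes had an entry. None of these held an X-box, which 1.53% of all 32851 promoters of the same 300 bases held, or the motif GTTGCC, which 12.5% held on either strand. The promoter of Tnfrsf21 is shown because it belongs to the member that rose, as the 250 bases before its start, chr17:43016305-43016554 of GRCm38.p6 on the plus strand. Capitals mark the closest match to the X-box, from -163 to -151, which has 2 mismatches, as few as or fewer than which 56.4% of all promoters reached.
Tnfrsf21 promoter: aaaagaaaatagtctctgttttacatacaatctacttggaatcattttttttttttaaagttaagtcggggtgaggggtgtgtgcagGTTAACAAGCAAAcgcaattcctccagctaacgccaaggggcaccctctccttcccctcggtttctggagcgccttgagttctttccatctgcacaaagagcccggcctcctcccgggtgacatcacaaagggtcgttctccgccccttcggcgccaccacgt
A match or its lack in these windows describes the letters and says nothing of whether RFX2 binds there.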

How the data were processed

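RNA of whole testes at P24 from 2 Rfx2 mutant and 2 control samples was analysed. The authors aligned reads to mm9 with TopHat2 2.0.6, assembled transcripts with Cufflinks and deposited 1 FPKM value per gene and sample, with its confidence bounds. FPKM corrects for transcript length and depth. The submitters' notes also name Cuffdiff, whose comparisons were not used here.

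The members and gene lists were chosen with earlier results of these data known. Entries that share a symbol were summed, 1 was added and log2 was taken, and genes reaching an FPKM of 1 in 2 or more samples were tested with limma 3.58.1 under R 4.3.3 (eBayes, trend on) by a two-sided test with p-values adjusted after Benjamini and Hochberg. The same function was tested on simulated data. Fas was below the filter and has values only. Genes named are the 8 members, Rfx2, the 2 most abundant genes of each pathway list and those with an unadjusted p under 0.05, and the 5 genes most like Tnfrsf21. The remaining death receptors and ligands and the nearest tested neighbours of Tnfrsf21 were named outside this rule, the first to complete short lists and the last by position.

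Fragments were computed from the bounds, taking the interval as the FPKM plus and minus 2 standard errors of a count. They restate the width of an interval, which can hold more than counting error, and are not read counts. The spread between samples is not part of them. Positions and exons came from the GENCODE annotation of NCBIM37, which is mm9, and promoters from RefSeq. Other settings tried were a smaller pseudocount (0.1 or 0.01), another filter (none, 0.1 or 5 FPKM), scaling by median ratios or by quantiles, eBayes with the trend off or made robust, the replicate number as a block, only the highest of entries sharing a symbol, a ratio of means, and leaving out each sample. Some genes that the rule names are not reported here. The crossed replicate block was chosen after seeing the data. Other steps used python 3.11.15, numpy 2.4.6 and pandas 2.3.3.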

Additional observations from a re-analysis of the deposited data

How the results depend on the processing

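Tnfrsf21 stayed higher in the mutants and past the threshold under all 16 alternatives with a test, with log2 fold changes from 2.37 to 3.43, and at 3.48 for the log2 ratio of the group means. In the limma fits with all 4 samples its adjusted p ran from 7.46e-12 to 0.0374, the highest without a filter. A replicate block by the labels' numbers gave an adjusted p of 7.46e-12, and the numbers crossed between genotypes gave 0.0137. Either block leaves 1 residual degree of freedom, so these p-values lean on the variance trend over all genes and do not measure strength of evidence. The deviations of same-numbered samples correlated at -0.154 over genes, and the numbers were not taken as pairs. With each sample left out in turn, where the lone sample is assumed to vary like the others, 1 member was called each time, and the log2 fold change of Tnfrsf21 ran from 2.37 to 3.05. No other member was called under any alternative, the lowest adjusted p being 0.840 for Casp9 with quantile normalization.

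The number of genes called lower was 327 and moved to 199 without a filter, 202 with a filter at FPKM 5, 216 with median-ratio scaling and 525 with the replicate block, and the number called higher was 40 and moved to 17, 17, 16 and 70, and to 67 with robust eBayes. Crossing the numbers gave 266 lower and 28 higher. Leaving out a sample gave 167 to 948 lower and 13 to 162 higher. The lowest number of lower genes came without control 1 and the highest without mutant 2. The median log2 fold change of the members was 1.41 with a filter at FPKM 5, which leaves 2 of them, and -0.060 to 0.18 with a sample left out.

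Leaving out a sample turned the direction of members and other genes near 0. The log2 fold changes then ran from -0.12 to 0.35 for Tnfrsf1a, -0.44 to 0.19 for Tnfrsf10b, -0.0091 to 0.18 for Fadd, -0.27 to 0.023 for Ripk1 and -0.15 to 0.34 for Casp8. They ran from -0.22 to 0.23 for App, -0.086 to 0.078 for Daxx, -0.086 to 0.30 for Mapk9, -0.12 to 0.26 for Birc2, -0.043 to 0.14 for Sharpin, -0.35 to 0.36 for Casp2 and -0.17 to 0.26 for Casp6. They ran from -0.098 to 0.11 for Diablo, -0.019 to 0.13 for Cyct, -0.023 to 0.27 for Parp1, -0.084 to 0.50 for Ei24, -0.091 to 0.30 for Ddit3 and -0.66 to 0.0093 for Tnfaip2. With median-ratio scaling the values were -0.013 for App, -0.010 for Casp2 and -0.014 for Diablo, and with quantile normalization 0.041 for Daxx and -0.023 for Diablo. Rfx2 had an adjusted p of 0.0607 without a filter, 0.0730 with median-ratio scaling and 0.0628 without control 1, and Npb 0.0527 without a filter and 0.0513 without control 1. Asns had an adjusted p of 0.0356 without mutant 2. Values of genes at low FPKM, Fas among them, have wide confidence intervals for their level.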
